A study of Mus musculus with 6 samples.

Results

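The 10 genes described here encode signals by which bone-forming cells act on osteoclasts, the cells that resorb bone, together with cytokines of the IL-6 family and the IL-33 ligand and receptor pair. They were chosen by name, as the rows of the deposited count tables whose Ensembl identifiers map to Tnfsf11, Tnfrsf11b, Csf1, Il34, Il6, Il11, Lif, Osmr, Il1rl1 and Il33, and all 10 were found among 53801 gene rows. The cells were MC3T3-E1, a mouse pre-osteoblast line, infected with a lentivirus and selected with 5 μg/ml puromycin for 7 days. In the control group, called scramble here, the virus carried a scrambled non-silencing RNA, and in the other group, called Hdac4-shRNA, it carried a short hairpin RNA against Hdac4, which the study's text names as Hdac4-shRNA3. Each group comprised 3 libraries of poly-A selected RNA from independent RNA samples. The labels do not say whether these came from separate infections, so the p-values measure the spread between these samples. Every library came from cells with the same lentiviral backbone, which also carries ZsGreen1, and the same selection, and a single hairpin was sequenced, so effects of this hairpin apart from its target cannot be told apart from loss of Hdac4.

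Osteoblast lineage cells control osteoclasts mainly by RANKL, the product of Tnfsf11, which binds RANK on osteoclast precursors, and by osteoprotegerin, the product of Tnfrsf11b, a secreted decoy receptor that binds RANKL and keeps it from RANK. Precursors also need a signal through the Csf1r receptor, whose ligands are M-CSF (Csf1) and IL-34 (Il34). Cytokines of the IL-6 family signal through receptors that contain gp130 (Il6st) and activate the kinases of the JAK family and the transcription factor STAT3. IL-33 is a nuclear cytokine that acts, once released, on the receptor ST2 (Il1rl1) with the accessory chain Il1rap.

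Reads counted on genes numbered 29096544 to 31651826 per library. Hdac4, the targeted gene, was at 40.3 ± 0.412 CPM (counts scaled to a common library size after TMM adjustment, mean ± SD, n = 3) in scramble and 29.6 ± 0.981 CPM (n = 3) in Hdac4-shRNA libraries, a log2 fold change of -0.44 (SE 0.057, edgeR adjusted p = 8.98e-07). Of its 15813 exon bases, 3536 are shared with another annotated gene. Of 10 osteoblast markers, Col1a1, at 338 and 11015 CPM, was abundant, whereas Alpl (0 to 3 counts), Bglap (0 to 12) and Ibsp (0 to 7) were near absent from every library. Runx2, a transcription factor of the lineage, was at 69.9 and 79.5 CPM. Sp7, another, had 4, 7 and 2 counts in scramble and 74, 112 and 68 in Hdac4-shRNA libraries (log2 fold change 4.18, SE 0.372). Of the 10, 5 were higher and Spp1 was lower, at 3154 and 2046 CPM (log2 fold change -0.62, SE 0.0338). Runx2, among the 5, had a log2 fold change of 0.19 (SE 0.0584), and its groups overlapped. The summed level of the 10 was 5693 to 5737 CPM in scramble and 23321 to 24217 CPM in Hdac4-shRNA libraries. Most of the sum in Hdac4-shRNA libraries was Col1a1 and Col1a2, with Col1a2 at 1213 CPM in scramble and 8572 CPM in Hdac4-shRNA libraries. Genes with at least 1 count numbered 19373 to 19797 in scramble and 22148 to 22640 in Hdac4-shRNA libraries. The part of these differences in the members' values was not tested.

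Of the 10 members, 9 had enough counts to be tested with edgeR among 14531 genes, and Tnfsf11 did not. A gene was called where the edgeR p, adjusted by Benjamini-Hochberg, was under 0.05 and its log2 fold change exceeded 0.05 up or down. By this rule, 7 members were higher in Hdac4-shRNA libraries (Tnfrsf11b, Csf1, Il34, Il11, Lif, Osmr and Il1rl1), 1 was lower (Il33), and Il6 was not called. Over all genes, 75.1% were called, 38.0% higher and 37.1% lower, and the 8 calls among 9 members are to be read against that share, so the members are described below mainly by the sizes of their changes. Of the 9, 5 were called with a change beyond 1 on the log2 scale, against 27.1% of all genes tested. The members were chosen with earlier results of these data known, so such shares do not test for an excess. The groups did not overlap for 7 members, against 76.8% of all genes. The median log2 fold change of the 9 was 0.97, beside 0.01 over all genes tested. That median is the value of Il11, a gene with few counts whose groups overlapped.

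**Figure D1:**
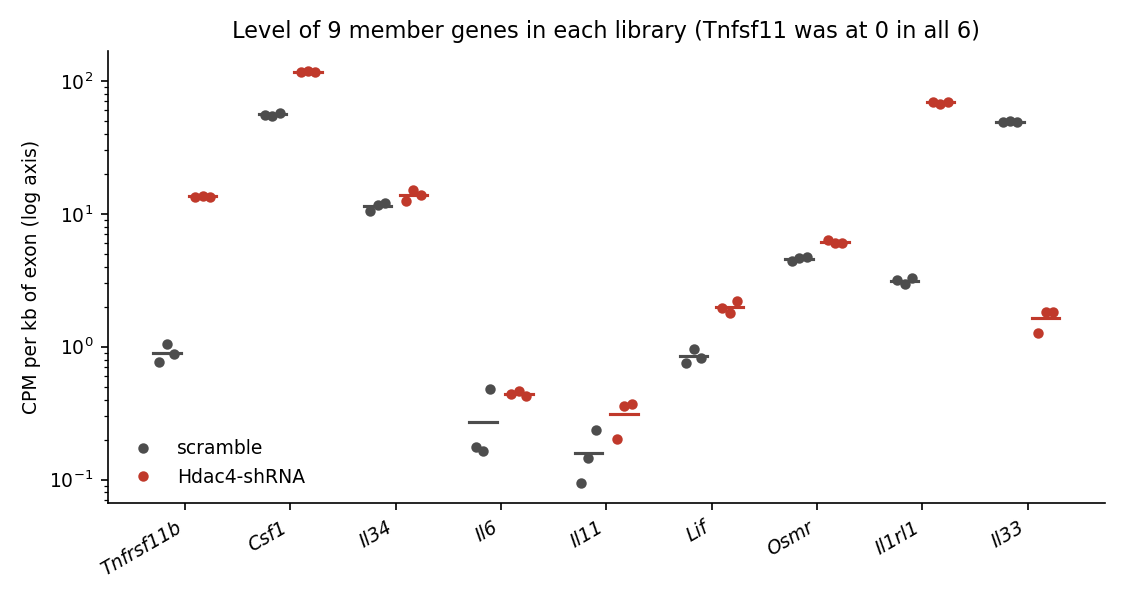
Level of each member in each of the 6 libraries, as CPM per kb of exon on a log axis, with points for libraries and bars for group means. Il1rl1 rises and Il33 falls, at 3.14 and 49.3 CPM per kb in scramble and 68.8 and 1.64 CPM per kb in Hdac4-shRNA libraries, and Tnfsf11, at 0 counts throughout, is not drawn.

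To compare levels between genes, CPM was divided by the length of the exons of each gene. In scramble libraries the order of mean level per kb was Csf1 (55.9 ± 1.47 CPM per kb, SD, n = 3), Il33 (49.3 ± 0.598), Il34 (11.5 ± 0.813), Osmr (4.59 ± 0.136), Il1rl1 (3.14 ± 0.146), Tnfrsf11b (0.902 ± 0.145), Lif (0.848 ± 0.11), Il6 (0.272 ± 0.177) and Il11 (0.158 ± 0.0718), with Tnfsf11 at 0. The libraries of Tnfrsf11b and Lif overlapped in this order, and so did those of Il6 and Il11. In Hdac4-shRNA libraries Csf1 still led (117 ± 1.19 CPM per kb), followed by Il1rl1 (68.8 ± 1.79), Il34 (13.8 ± 1.28), Tnfrsf11b (13.5 ± 0.192), Osmr (6.11 ± 0.2), Lif (1.99 ± 0.214), Il33 (1.64 ± 0.316), Il6 (0.441 ± 0.018) and Il11 (0.309 ± 0.0929). There, Il34 overlapped Tnfrsf11b and Lif overlapped Il33. Il33 thus moved from the second place to the seventh, and Il1rl1 from the fifth to the second.

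**Figure D2:**
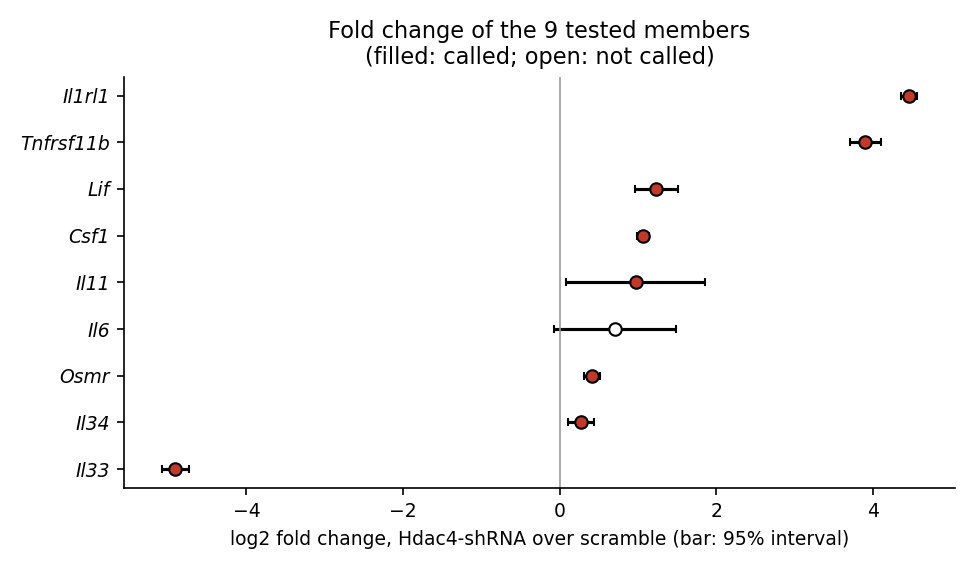
Log2 fold change of Hdac4-shRNA over scramble for the 9 tested members, with 95% intervals from the edgeR fit. Il1rl1, at 4.46, and Il33, at -4.91, lie at the ends, and only the interval of Il6, -0.07 to 1.48, includes 0.

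Among the RANK pathway genes, the decoy receptor rose and the ligand was not seen. Tnfsf11 (ENSMUSG00000022015, GRCm38 chromosome 14, 78277445 to 78308043, minus strand) had 0 counts in all 6 libraries. A count of 0 allows a level of up to 0.0948 to 0.103 CPM, depending on the library, for counting error only. Its expression was therefore not detectable at this depth in either group, and no fold change can be given. Tnfrsf11b (ENSMUSG00000063727, chromosome 15, 54250619 to 54278484, minus strand) was counted 66, 89 and 71 times in scramble libraries and 1167, 1246 and 1136 times in Hdac4-shRNA libraries. Every Hdac4-shRNA library lay far above every scramble library. The level of Tnfrsf11b rose from 2.54 ± 0.409 to 38.0 ± 0.54 CPM (SD, n = 3), 15-fold, a log2 fold change of 3.90 (SE 0.0967, edgeR adjusted p = 6.59e-18), and among 14531 genes it ranked 554 by the size of the change. In bulk RNA, more cells with the transcript and more transcript per cell cannot be told apart.

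The balance of RANKL to osteoprotegerin is often summarised as a ratio, which can be taken within a library and needs no scaling between libraries. With Tnfsf11 set at the limit of 3 counts, Tnfrsf11b per kb was at least 17.5-, 23.5- and 18.8-fold higher than Tnfsf11 in the scramble libraries. In the Hdac4-shRNA libraries it was at least 309-, 329.6- and 300.5-fold higher. With 0.5 added to each count, the log2 ratio of Tnfsf11 to Tnfrsf11b differed by -3.97 between the group means (p = 0.1 by exact two-sided permutation of the libraries, below which 3 against 3 cannot go). Since Tnfsf11 was at 0 in every library, this difference is that of Tnfrsf11b.

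Of the receptors of RANKL, RANK was close to absent and Lgr4 was expressed. Tnfrsf11a, which encodes RANK, had 0 counts in each scramble library, and the Hdac4-shRNA libraries had 5, 1 and 5. Of 6 genes listed as RANK and CSF1 receptors and signal carriers, 4 were tested, and 1 was higher and 1 lower. Lgr4, which encodes a further receptor for RANKL, fell from 53.5 ± 2.45 to 39.9 ± 1.74 CPM (log2 fold change -0.42, SE 0.0562, edgeR adjusted p = 1.31e-06). Ligand genes that act on osteoclast precursors were thus measured in cells with few or no transcripts of the main receptor.

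Both ligands of Csf1r were expressed, and Csf1 rose more than Il34. Csf1 (ENSMUSG00000014599, chromosome 3, 107741048 to 107760469, minus strand), the growth factor that keeps osteoclast precursors alive, was counted 8970, 8637 and 8658 times in scramble and 18927, 20090 and 18467 times in Hdac4-shRNA libraries. Each Hdac4-shRNA library lay well above each scramble library. Csf1 rose from 295 ± 7.75 to 616 ± 6.3 CPM (SD, n = 3), 2.09-fold, a log2 fold change of 1.06 (SE 0.0378, edgeR adjusted p = 2.07e-15). Il34 (ENSMUSG00000031750, chromosome 8, 110741829 to 110805924, minus strand) was counted 632, 687 and 677 times in scramble and 759, 952 and 816 times in Hdac4-shRNA libraries. As CPM, the lowest Hdac4-shRNA library, 24.5, was only just above the highest scramble library, 23.8. Its log2 fold change was 0.27 (SE 0.0772, edgeR adjusted p = 0.00393), and 97 of its 1959 exon bases are shared with 2 other genes, Gm15894 and Gm15895, where reads without strand cannot be assigned to one gene.

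Within libraries, Csf1 per kb was 5.26, 4.66 and 4.74 times Il34 per kb in scramble and 9.24, 7.82 and 8.39 times in Hdac4-shRNA libraries. The log2 ratio differed by 0.79 between the groups, which did not overlap (exact two-sided permutation p = 0.1). The receptor itself, Csf1r, had 3, 4 and 6 counts in scramble and 19, 23 and 22 counts in Hdac4-shRNA samples (log2 fold change 2.20, SE 0.447, edgeR adjusted p = 0.000195), with 873 of its 5774 exon bases shared with Hmgxb3. Sdc1, a proteoglycan that binds IL-34, was at 280.0 ± 9.18 and 273 ± 15.4 CPM, a difference of -0.034 on the log2 scale (95% interval -0.13 to 0.06) whose sign turned with library size scaling and upper quartile scaling. Ptprz1, another receptor of IL-34, had 0 counts in all libraries.

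The 250 bases before the annotated start of Csf1 are shown because this is the most abundant member in both groups and the window holds a match to the NF-kB motif, in capitals, 154 to 145 bases before the start (RefSeq, GRCm38.p6, chr3:107760470-107760719, minus strand).
Csf1: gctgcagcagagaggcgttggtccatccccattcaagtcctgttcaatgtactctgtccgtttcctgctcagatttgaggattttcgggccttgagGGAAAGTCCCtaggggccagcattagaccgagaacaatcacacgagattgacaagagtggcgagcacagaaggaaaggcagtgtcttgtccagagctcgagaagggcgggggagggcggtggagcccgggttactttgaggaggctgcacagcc

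In the IL-6 family, Lif rose clearly, Il11 and Il6 were close to the limit of detection, and Osmr rose by a small amount. Lif (ENSMUSG00000034394, chromosome 11, 4257557 to 4272514, plus strand), a cytokine that signals through Lifr and gp130, was counted 100, 126 and 102 times in scramble and 264, 252 and 291 times in Hdac4-shRNA libraries. The groups did not overlap. Its level was 3.69 ± 0.478 and 8.67 ± 0.932 CPM (SD, n = 3), a 2.35-fold rise with a log2 fold change of 1.23 (SE 0.133, edgeR adjusted p = 7.52e-08). Osmr (ENSMUSG00000022146, chromosome 15, 6813577 to 6874969, minus strand), which pairs with gp130 as the receptor of oncostatin M, was counted 1643, 1683 and 1622 times in scramble and 2378, 2341 and 2188 times in Hdac4-shRNA libraries. It rose from 55.6 ± 1.65 to 74.1 ± 2.42 CPM, 1.33-fold, a log2 fold change of 0.41 (SE 0.0492, edgeR adjusted p = 3.07e-07). Osm, the gene of its ligand, had 1 count in the 6 libraries together.

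Il6 (ENSMUSG00000025746, chromosome 5, 30013114 to 30019981, plus strand), whose product promotes osteoclast formation through osteoblast lineage cells, was counted 13, 12 and 33 times in scramble and 33, 36 and 31 times in Hdac4-shRNA libraries. The third scramble library reached the level of the Hdac4-shRNA group while the other scramble libraries lay lower, so the groups overlapped. The log2 fold change was 0.71 (95% interval -0.07 to 1.48, edgeR adjusted p = 0.0918, two-sided exact permutation p = 0.4). Without scramble replicate 3 it was 1.35 with an edgeR adjusted p of 0.00489, and limma-voom with all libraries gave 0.87 with an adjusted p of 0.0407, so the call depends on that library and on the test. Over all alternatives the adjusted p of Il6 (edgeR, DESeq2 or limma-voom) was 0.00489 to 0.317. Il11 (ENSMUSG00000004371, chromosome 7, 4772373 to 4782859, minus strand), a gp130 cytokine known for a role in bone remodelling, was counted 6, 9 and 14 times in scramble and 13, 24 and 23 times in Hdac4-shRNA libraries. The lowest Hdac4-shRNA library lay below the highest scramble library. Its log2 fold change of 0.97 (SE 0.423) only just passed, with an edgeR adjusted p of 0.0455, and the two-sided exact permutation p was 0.2. The edgeR adjusted p rose to 0.199 without scramble replicate 1, 0.115 without scramble replicate 2, 0.127 without Hdac4-shRNA replicate 2 and 0.141 without Hdac4-shRNA replicate 3. DESeq2 gave 0.0966, and over all alternatives the range was 0.0244 to 0.199.

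The window before the start of Lif is shown with its matches in capitals, an AP-1 match (TGANTCA, read on both strands) 228 to 222 bases and a RUNX match (TGTGGT) 102 to 97 bases before the start (RefSeq, GRCm38.p6, chr11:4257318-4257567, plus strand).
Lif: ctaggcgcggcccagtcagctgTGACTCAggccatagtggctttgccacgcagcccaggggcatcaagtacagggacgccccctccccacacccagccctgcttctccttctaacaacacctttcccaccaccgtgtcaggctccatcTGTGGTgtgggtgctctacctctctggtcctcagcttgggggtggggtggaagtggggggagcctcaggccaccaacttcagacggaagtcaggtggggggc

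The wider family was described by lists of genes with known roles. Calls in every list are to be read against the shares over all genes, 38.0% higher and 37.1% lower. Among 10 ligands of the IL-6 family, 3 of them members, 6 were tested, of which 4 were higher and Il6 and Cntf were not called, and the median of the log2 fold changes was 0.97. Clcf1, a cytokine that acts through the CNTF receptor, rose 1.95-fold (log2 fold change 0.97, SE 0.0816, edgeR adjusted p = 2.00e-09), and 311 of its 3806 exon bases are shared with another gene. The ligand-specific chain of that receptor, Cntfr, had 0 to 7 counts in every library.

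Among 7 receptor genes, 1 of them a member, 5 were tested, of which 3 were higher and 1 was lower. Il11ra1, the IL-11 receptor chain, rose from 123, 87 and 80 to 767, 844 and 739 counts, 7.76-fold (log2 fold change 2.95, SE 0.111, edgeR adjusted p = 4.92e-15). Mice carry near-identical copies of this gene. Reads that do not align uniquely are counted in a separate summary line, so reads shared between the copies may be missing here. Lifr fell from 31.8 ± 0.786 to 22.6 ± 1.42 CPM (log2 fold change -0.49, SE 0.0659, edgeR adjusted p = 1.47e-06), opposite in direction to its ligand gene Lif. Il6ra was at 22.6 ± 1.28 and 22.8 ± 1.07 CPM, a log2 difference of 0.01 (95% interval -0.14 to 0.16) whose sign changed with the filter and with single libraries left out. The shared chain Il6st was at 231 ± 1.66 and 249 ± 9.24 CPM, a log2 fold change of 0.11 (SE 0.0403, edgeR adjusted p = 0.0193). That call was lost without scramble replicates 1, 2 or 3 (edgeR adjusted p = 0.0819, 0.0588 and 0.106) and without Hdac4-shRNA replicate 1 (0.0576).

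Downstream of these receptors genes moved in both directions. Of 13 genes of JAK-STAT signalling and feedback, 2 were higher and 4 lower, with a median of 0.03. With upper quartile scaling, 4 were higher and 3 lower. Stat3 rose from 140 ± 1.75 to 182 ± 1.74 CPM (log2 fold change 0.38, SE 0.0398, edgeR adjusted p = 5.59e-08). Jak1 (-0.37, SE 0.0391, adjusted p = 5.08e-08) and Stat5a (-0.43, SE 0.0711, adjusted p = 2.02e-05) fell on the log2 scale in the same edgeR fit. Socs3, the feedback inhibitor that STAT3 induces, chosen after its values were seen, was at 53.9 ± 1.1 and 53.9 ± 3.45 CPM, with a 95% interval for the log2 difference of -0.11 to 0.11 and a sign that changed with the scaling. Of 14 STAT3 target genes, 1 of them a member, 13 were tested, with 6 higher, 3 lower and a median of 0.16. Cebpd rose by 1.42 and Mcl1 by 0.49 on the log2 scale, whereas Pim1 fell by 0.74 (SE 0.121, 0.0435 and 0.0844). Lbp (6, 4 and 3 to 17, 13 and 24 counts, log2 fold change 1.96, SE 0.485) and Fgl2 (36, 57 and 55 to 13, 19 and 10 counts, log2 fold change -1.88, SE 0.327), named after their values were seen, changed most in this list at low counts. Cebpd shares 562 and Pim1 488 exon bases with other genes.

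**Figure D3:**
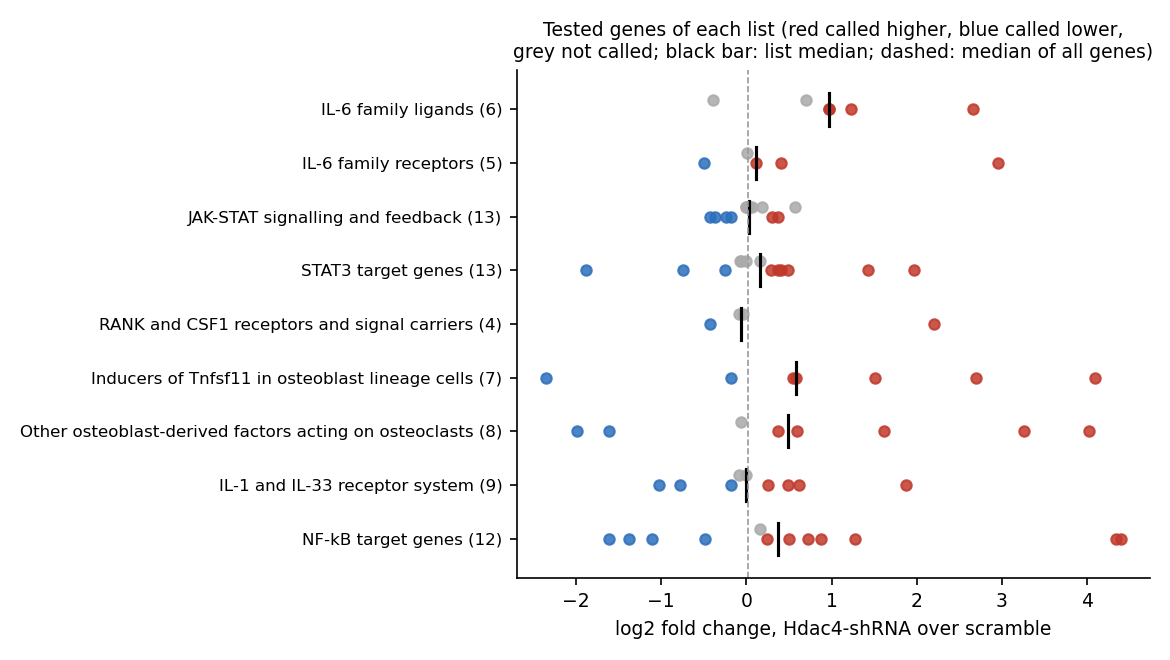
Log2 fold change of every tested gene in the 9 lists, with the number tested in brackets, red for genes called higher, blue for genes called lower and grey for genes not called. The black bars are list medians, from -0.057 (RANK and CSF1 receptors, positive with library size or upper quartile scaling) to 0.97, and the dashed line is the median of all genes, 0.01.

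The IL-33 and ST2 genes changed most among the members, in opposite directions. Il33 (ENSMUSG00000024810, chromosome 19, 29925114 to 29960718, plus strand) was counted 4302, 4316 and 4048 times in scramble and 114, 170 and 158 times in Hdac4-shRNA libraries. Il1rl1 (ENSMUSG00000026069, chromosome 1, 40429570 to 40465415, plus strand) was counted 663, 616 and 644 times in scramble and 14921, 14828 and 14465 times in Hdac4-shRNA libraries. For both genes each library lay far from those of the other group. Within the Hdac4-shRNA group, Il33 was lower in the first library, at 3.68 CPM, than in the others, at 5.28 and 5.25 CPM.

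Il33 fell from 142 ± 1.73 to 4.74 ± 0.911 CPM (SD, n = 3), so that scramble libraries held 30.1 times the level of Hdac4-shRNA libraries, a log2 fold change of -4.91 (SE 0.0804, edgeR adjusted p = 1.01e-20). Il1rl1 rose from 21.6 ± 1.01 to 474 ± 12.3 CPM (SD, n = 3), 21.9-fold, a log2 fold change of 4.46 (SE 0.0501, edgeR adjusted p = 7.42e-23). By size of change they ranked 263 and 380 of 14531 genes. For each of the 7 members whose groups did not overlap, the exact two-sided permutation p was 0.1.

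Il1rl1 is also a known gene of mast cells and of some lymphocytes. Of 8 markers of those cells, Cd3e, Cd8a, Cpa3 and Fcer1a were at 0 in all libraries, Kit and Cd4 had at most 3 counts, and the summed level, almost all of it Gata3, was 5.21 to 8.81 CPM in scramble and 1.79 to 2.42 CPM in Hdac4-shRNA libraries. In the endothelial list, whose cells can express both genes, 3 of 5 markers (Cdh5, Kdr and Tek) had at most 10 counts in any library, while Pecam1 and Vwf rose (from 6 to 7 and from 3 to 8 counts in scramble to 72 to 75 and 74 to 113 counts). The summed level of the list was 0.36 to 0.668 CPM in scramble and 5.61 to 6.42 CPM in Hdac4-shRNA libraries. The part of these cells in the values of Il1rl1 was not tested.

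Both genes have more than 1 annotated start. From alternative starts and ends Il1rl1 gives a membrane receptor and a soluble form that binds IL-33 without signalling, and the counts per gene do not separate them. The windows of 250 bases before the starts in RefSeq (GRCm38.p6, plus strand) are shown because these genes moved furthest. The windows of Il1rl1 lie at chr1:40429320-40429569 and chr1:40439379-40439628, and those of Il33 at chr19:29924863-29925112 and chr19:29945540-29945789. Capitals mark the single motif match found in them, RUNX, on the last 6 bases before the second Il1rl1 start.
Il1rl1, first start: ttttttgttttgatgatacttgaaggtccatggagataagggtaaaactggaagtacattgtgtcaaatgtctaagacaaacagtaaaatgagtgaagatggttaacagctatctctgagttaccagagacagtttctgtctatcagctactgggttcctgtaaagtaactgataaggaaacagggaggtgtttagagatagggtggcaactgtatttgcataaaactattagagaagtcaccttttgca
Il1rl1, second start: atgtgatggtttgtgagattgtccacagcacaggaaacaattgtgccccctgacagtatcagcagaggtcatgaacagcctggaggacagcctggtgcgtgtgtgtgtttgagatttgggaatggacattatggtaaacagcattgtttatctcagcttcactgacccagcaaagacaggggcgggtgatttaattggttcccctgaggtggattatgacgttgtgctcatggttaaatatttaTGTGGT
Il33, first start: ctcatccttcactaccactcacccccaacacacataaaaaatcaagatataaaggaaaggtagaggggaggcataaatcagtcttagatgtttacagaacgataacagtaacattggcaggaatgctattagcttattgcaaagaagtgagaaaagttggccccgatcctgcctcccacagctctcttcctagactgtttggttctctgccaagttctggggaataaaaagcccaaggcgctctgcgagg
Il33, second start: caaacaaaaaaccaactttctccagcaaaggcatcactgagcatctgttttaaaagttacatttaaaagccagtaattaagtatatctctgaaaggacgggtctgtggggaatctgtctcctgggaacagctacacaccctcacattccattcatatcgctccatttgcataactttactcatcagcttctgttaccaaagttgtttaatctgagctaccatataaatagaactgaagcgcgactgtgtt

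Across the 11 windows found for 8 members (Tnfrsf11b and Il34 had none), AP-1 matched in 3 windows, before Il6, Lif and the second Il11 start. The RUNX motif matched in 2, before Lif and the second Il1rl1 start, and the NF-kB motif in 2, before Csf1 and Il6. The STAT motif (TTCNNNGAA) and the MEF2 motif matched in none. Of all 32851 windows of the same length, 6.75% held an AP-1, 14.0% a RUNX, 3.9% an NF-kB, 7.02% a STAT and 2.92% a MEF2 match. Both strands were searched, and no matches overlapped in the members' windows.

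The accessory chain of ST2 fell, and of the genes around Il1rl1, Il1r1 changed little and Il18rap rose. Il1rap, without which ST2 does not signal, fell from 33.7 ± 0.951 to 19.5 ± 1.05 CPM (log2 fold change -0.78, SE 0.0657, edgeR adjusted p = 1.77e-09), and 552 of its 11360 exon bases are shared with another gene. Il1rl1 lies on chromosome 1 in a cluster of receptor genes in the order Il1r2, Il1r1, Il1rl2, Il1rl1, Il18r1 and Il18rap. Il1r2, Il1rl2 and Il18r1 had at most 13 counts in any library, and Il18r1, next to Il1rl1, had 1, 0 and 1 in scramble and 8, 4 and 6 in Hdac4-shRNA libraries. Il1r1, the receptor of IL-1, was at 33.1 ± 1.72 and 29.3 ± 0.699 CPM (log2 fold change -0.18, SE 0.0615, edgeR adjusted p = 0.015). This call was lost with library size scaling (adjusted p = 0.0865), with upper quartile scaling (0.212), without scramble replicate 2 (0.0712) and without Hdac4-shRNA replicate 3 (0.0674) in edgeR. Il18rap, the accessory chain of the IL-18 receptor, rose from 5.38 ± 0.242 to 19.8 ± 1.35 CPM, 3.68-fold (log2 fold change 1.88, SE 0.0942, edgeR adjusted p = 5.19e-13), while Il18, the gene of the ligand, fell by 1.02 on the log2 scale (SE 0.139, adjusted p = 1.78e-06).

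**Figure D4:**
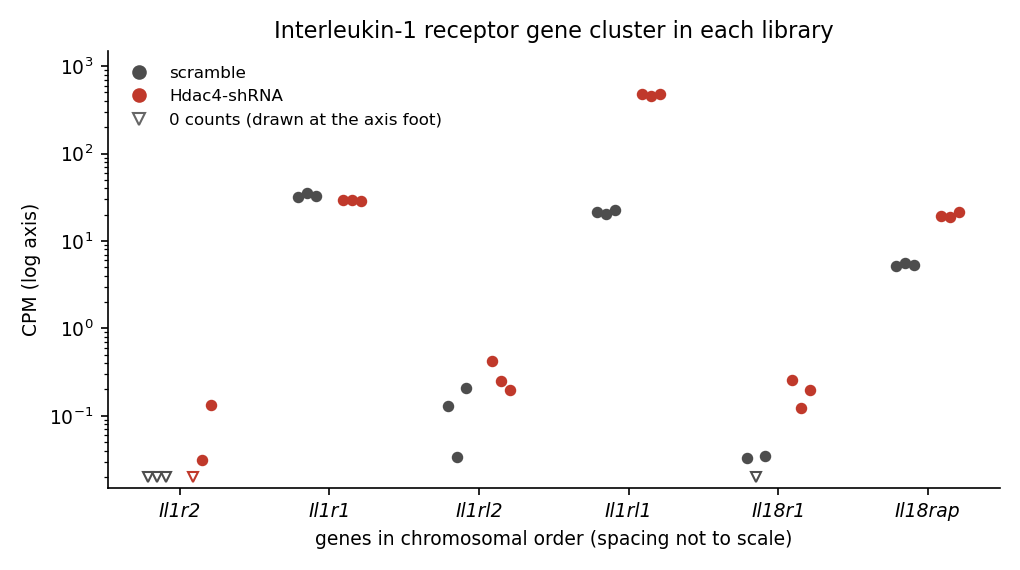
CPM of the 6 genes of the interleukin-1 receptor cluster in each library, on a log axis and in chromosomal order, with triangles for 0 counts. Il1rl1 lies at 20.6 to 22.6 CPM in scramble and 460.1 to 482 CPM in Hdac4-shRNA libraries, and Il1r1 differs little between groups.

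Of the 14 genes listed for the IL-1 and IL-33 receptor system, which do not include Il1rl1 or Il33, 9 were tested, 4 higher and 3 lower. The median, -0.0004 on the log2 scale, turned positive with each of the other 3 scalings, up to 0.089. With library size or upper quartile scaling, 4 were higher and 2 lower. Of 12 NF-kB target genes, all tested, 7 were higher and 4 lower, with a median of 0.37. In those 2 scalings, 7 were higher and 3 lower. Birc3 rose from 10, 9 and 15 to 219, 278 and 231 counts (log2 fold change 4.34, SE 0.213, edgeR adjusted p = 3.68e-13). Relb (1.28, SE 0.0718) and Nfkb2 (0.87, SE 0.0452), named after their values were seen, also rose on the log2 scale, whereas the chemokine gene Ccl2 (-1.61, SE 0.0697) and the inhibitor Tnfaip3 (-1.38, SE 0.0581) fell. Nfkb2 shares 830 and Icam1 511 exon bases with other genes. Ccl2 was counted 1860, 1793 and 1550 times in scramble and 654, 591 and 535 times in Hdac4-shRNA libraries. The list thus moved in both directions.

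Genes listed as inducers of Tnfsf11 in osteoblast lineage cells ranged from near absent to well expressed, while Tnfsf11 had no counts. Of 8 such genes, 7 were tested, 5 higher and 2 lower, median 0.58 on the log2 scale. With library size or upper quartile scaling, 5 were higher and 1 lower. Pth1r, among the 5, had only 4, 4 and 5 counts in scramble and 35, 28 and 27 in Hdac4-shRNA libraries. Ptger2, not tested, had 0 counts in each scramble library and 3, 0 and 0 in Hdac4-shRNA libraries. Ptges, the last enzyme of prostaglandin E synthesis, rose from 9.10 ± 1.01 to 156 ± 5 CPM, 17.1-fold (log2 fold change 4.10, SE 0.0656, edgeR adjusted p = 7.29e-21). Ptgs2, the cyclooxygenase before it, rose 2.85-fold (1.51 on the log2 scale, SE 0.0441, edgeR adjusted p = 8.54e-17). Ptger4, a receptor of prostaglandin E, fell from 29.3 ± 1.42 to 5.73 ± 0.418 CPM (-2.35, SE 0.0853, edgeR adjusted p = 2.73e-15), and 1097 of its 6648 exon bases are shared with other genes. Vdr, the vitamin D receptor, named after its value was seen, rose by 0.55 (SE 0.0723) on the log2 scale.

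Among 16 other genes listed for signals between osteoblasts and osteoclasts, in either direction, 8 were tested, 5 higher and 2 lower, median 0.48 on the log2 scale. Wnt5a, a Wnt ligand that raises RANK in precursors, rose from 27, 23 and 25 to 454, 447 and 382 counts (log2 fold change 4.02, SE 0.147, edgeR adjusted p = 3.15e-15). Sphk1, the kinase that makes sphingosine 1-phosphate, rose 9.56-fold (3.26, SE 0.0635, edgeR adjusted p = 1.47e-19). Wnt5a shares 358 and Sphk1 192 exon bases with other genes. Efnb2, an ephrin ligand of Ephb4, fell from 122 ± 3.91 to 30.7 ± 0.559 CPM (-1.99, SE 0.0492, edgeR adjusted p = 6.57e-18). Csf2 and Cthrc1 were at 0 in every library, and Il1b, Tnf and Il1a had at most 9 counts in any library.

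Osteoclast and macrophage markers were measured because these cells carry the receptors of the ligands above. Of 12 markers, 8 had at most 10 counts in every library, Adgre1, Dcstamp and Calcr were at 0 throughout, and Ptprc had 0 to 9. Of the 4 tested, Ctsk, Csf1r and Mmp9 rose and Cd68 was not called. The summed level was 4.88 to 5.92 CPM in scramble and 79.4 to 88.9 CPM in Hdac4-shRNA libraries, in the latter almost all of it Ctsk, a cathepsin also expressed in mesenchymal cells, at 2.59 ± 0.275 and 78.4 ± 4.0 CPM. The part of Ctsk-expressing cells in the changes of the members was not tested.

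The nearest tested genes on either side of each member, within 500 kb by the lower coordinates of the genes, were compared with it. Osmr and Lifr are neighbours on chromosome 15, 277 kb apart by this measure, and moved oppositely (log2 fold changes 0.41 and -0.49). The neighbours of Il33, Ranbp6 (0.56, SE 0.0597) and Uhrf2 (-0.41, SE 0.0418), changed little beside its own -4.91. Castor1, 39.3 kb from Lif, rose by 2.57 (SE 0.112) on the log2 scale, and Mtmr3, on the other side, by 0.24 (SE 0.0456). Ahcyl1, next to Csf1, rose by 0.32 (SE 0.0422), and Tyms, 45.1 kb from Il6, fell by 0.97 (SE 0.0512). Gm36211, on the other side of Csf1, rose by 0.96 (SE 0.259), close to the 1.06 of Csf1. Colec10, the tested neighbour of Tnfrsf11b, also rose (log2 fold change 4.85, SE 0.82), with an average of 7 counts per library. On either side of Tnfsf11, which had no counts, Dnajc15 (23.8 CPM in Hdac4-shRNA libraries) and Akap11 (102 CPM) were expressed.

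The genes most alike to Il1rl1 and Il33 were sought by the Euclidean distance of log2 CPM, centred on each gene's mean over the 6 libraries, among the 10823 tested genes that averaged 100 counts or more. Closest to Il1rl1 were Sparcl1 (distance 0.122, log2 fold change 4.46), Cacna1c (0.168, 4.46) and Igf2bp1 (0.18, 4.49). Closest to Il33 were Tspan15 (distance 0.201, log2 fold change -4.90), Has1 (0.274, -5.06) and Mfsd2a (0.464, -5.37). Since 2 groups of 3 libraries hold little more than a single contrast, this likeness is mainly that of the size of the change.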

How the data were processed

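RNA of 6 libraries of MC3T3-E1 cells, 3 per group, was sequenced in pairs after poly-A selection with a kit that does not mark strand. The deposited tables give whole-number counts of reads for each Ensembl gene, one table per library, which the authors did not normalize. Their processing notes name FastQC, STAR 2.7.3a, HTSeq 0.12.4 and build mm10, and the annotation release is not given in the sources used here. The 5 closing summary lines of each table, 14.3 to 15.0% of all reads, were left out of library sizes and tests.

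Of 53801 identifiers, 53706 were found in GENCODE M21 (GRCm38). The quasi-likelihood F test of edgeR (version 4.0.16, under R 4.3.3) was run after filterByExpr and TMM scaling, and p-values were adjusted by Benjamini-Hochberg over all genes tested. CPM is the count scaled to the TMM-adjusted library size. SE is the log2 fold change divided by the square root of F. Single genes and ratios were also compared by two-sided exact permutation tests (scipy 1.17.1). The test was checked on simulated data in which 200 genes were changed. That check cannot show how the test or the TMM scaling behaves where most genes change, as they did here. Promoter windows came from the RefSeq table of GRCm38.p6.

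As alternatives, each library was left out, the replicate number was a block, scaling used the library size alone, the upper quartile or the size factors of DESeq2, genes were kept from 1 count up or from 10 in each library, the fold threshold was 0, 0.5 or 1, and the test was that of DESeq2 (1.42.0) or limma-voom (limma 3.58.1). Named genes were the members, Hdac4, the members' receptors, up to 3 called genes of each list (at least 100 counts on average, groups not overlapping, greatest change), the nearest tested neighbours and the 3 genes most alike to the members with the greatest rise and fall. Other genes in the text were chosen after their values were seen. The members and lists were chosen with earlier results of these data known. Some genes of the lists are not reported here by name.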

Additional observations from a re-analysis of the deposited data

Results flagged for a closer look

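One result stood apart from the counts on genes. Read pairs that mapped to no annotated gene, one of the summary lines that the comparisons did not use, made up 4.79% ± 0.241 (SD, n = 3) of all reads in Hdac4-shRNA libraries and 3.28% ± 0.122 in scramble libraries, a share above the level of the control group. Its part in the members' values was not tested.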

How the results depend on the processing

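Among the alternative scalings, filters, tests, the block and left-out libraries, Il11 was the only member whose call was lost and Il6 the only one that gained a call. Il11 had edgeR adjusted p = 0.0783 with no filter beyond 1 count, 0.0508 in limma-voom and 0.0966 in DESeq2, and no value when genes needed 10 counts in each library. Il6 was called in limma-voom (log2 fold change 0.87, adjusted p = 0.0407). At a threshold of 0.5 on the log2 scale, Il34 and Osmr were no longer called and 5 members were higher, and at 1, where Il11 was lost too, 4 were higher. Over all genes, 3579 were higher and 2879 lower at a threshold of 0.5, and 2397 and 1543 at 1. With 1 library left out, 6 to 8 members were higher and 1 lower, and 5370 to 5519 genes were higher and 5165 to 5402 lower. Upper quartile scaling moved the median of all genes by 0.089 on the log2 scale.

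Genes near no change turned sign. Sdc1 was at 0.023 with library size alone, 0.056 with upper quartile scaling and 0.0041 with at least 10 counts, and at -0.065 to 0.0195 with 1 library left out. Il6ra was at -0.018 with no filter and -0.037 to 0.0402 with 1 library left out. Socs3 was at 0.0015 with DESeq2 size factors, 0.057 with library size alone, 0.089 with upper quartile scaling, 0.038 with at least 10 counts and 0.0014 in DESeq2, and at -0.053 to 0.035 with 1 library left out.

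The labels number the libraries of both groups from 1 to 3, but same-numbered libraries did not deviate together (correlations -0.0111, 0.027 and 0.0166). With the replicate block, 6 members were higher and 1 lower, and Il11 had a log2 fold change of 0.98 with an edgeR adjusted p of 0.0523. Few counts limit Il6 and Il11, and Tnfsf11 cannot be assessed below its limit.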
